A study of Rattus norvegicus with 2 samples.

Results

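Potassium channel genes, those whose symbol begins with Kcn, were described in rat C6 glioma cells treated with small molecules (labelled SMiG) and in undifferentiated C6 cells, with 1 microarray for each. Of 36685 probe sets on the array, 88 carried a single gene symbol that begins with Kcn, and they stand for 87 of the 18166 genes with a symbol. C6 is an established rat glioma line, grown here in serum-containing medium, and the series asks whether small molecules can turn such cells into glia that divide less. The treatment of the SMiG cells is given in 2 ways: its own labels list forskolin (which activates adenylyl cyclase and so raises cAMP), rapamycin (which blocks mTORC1) and I-BET151 (which blocks BET bromodomains), whereas the treatment protocol, shared by the 2 samples, gives 35 days of forskolin at 100 µM with the GSK3 inhibitor CHIR99021 at 20 µM. The C6 sample is labelled as undifferentiated and names no compound of its own.

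Potassium channels let potassium leave or enter cells down its electrochemical gradient and so set the resting membrane potential and shape electrical signals. Voltage-gated channels are tetramers that open on depolarization. Inward rectifiers pass current into the cell more readily than out of it and carry the potassium uptake of astrocytes. Two-pore channels give a background leak, and calcium-activated channels couple the membrane potential to intracellular calcium. Auxiliary subunits bind these pores and change their gating or their transport to the cell surface. In glia and glioma cells potassium channels take part in potassium buffering, volume change, migration and proliferation.

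Values are the deposited log2 expression levels, and each difference is SMiG minus C6. Each group has 1 array, which gives neither replicate error nor a test, so the counts, medians and folds describe these 2 arrays, and the number of arrays limits their precision. A gene was called detected if it lay above the floor of at least 1 array, 4.96 in SMiG and 4.84 in C6, which is the 95th percentile of 1343 olfactory and vomeronasal receptor genes taken as silent. Those silent genes differed between the arrays with an SD of 0.32 on the log2 scale, and 0.745% of them passed 2-fold. Of the 79 silent genes that passed the floor on at least 1 array, 3 (3.80%) were lower by 2-fold or more and 1 (1.27%) was higher. Markers of the glioma line were present on both arrays: the levels in SMiG and C6 were 12.74 and 12.74 for the intermediate filament gene Vim, 8.59 and 8.74 for Nes, 10.87 and 9.67 for S100b, 5.48 and 6.05 for Gfap and 11.21 and 10.95 for the proliferation marker Mki67.

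Most potassium channel genes were near or below the floor, and those with a large difference were nearly all lower in SMiG. Of the 87 genes, 32 were detected, 22 of them above the floor on both arrays, and 55 were at or below it on both. Among the 32, the SMiG value was lower by 2-fold or more for 8 and higher by 2-fold or more for 1, with 23 within 2-fold. These counts use the measured values; against the floor of the dimmer array, 6 of the 8 lower genes still passed 2-fold, and Kcnd1, Kcne4 and the higher gene Kcnb2 did not. Over all 10932 detected genes, 6.51% were lower by 2-fold or more and 3.19% were higher by as much. The floor itself adds to such counts, since a gene that passed through 1 array only is one that is brighter there. Among the 22 genes above it on both arrays, 4 were lower by 2-fold or more and 0 were higher, against 5.34% lower and 3.2% higher among the 10061 genes of that kind. The median difference of the 32 detected members was 0.04, beside −0.01 over all detected genes. In a culture measured as bulk RNA, fewer cells that express a gene and less of its RNA per cell cannot be told apart.

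**Figure D1:**
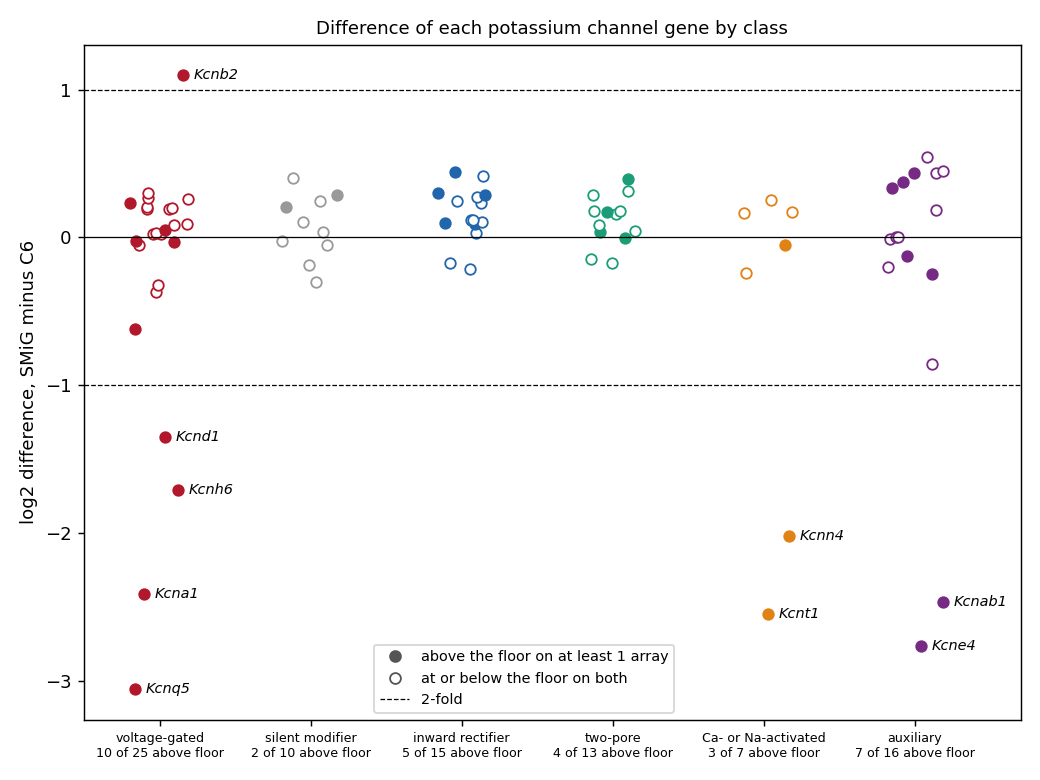
Log2 difference, SMiG minus C6, of each of the potassium channel genes in the 6 classes (Kcnrg, a regulator, is left out), 1 point per gene with sideways scatter for legibility. Filled points were above the floor on at least 1 array, open points on neither, and dashed lines mark 2-fold. The 8 genes with a measured difference of −1 or less are voltage-gated, calcium- or sodium-activated or auxiliary, and the inward rectifier, two-pore and silent modifier genes all lie between −0.30 and 0.44.

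The 9 genes past 2-fold were the voltage-gated Kcnq5, Kcna1, Kcnh6, Kcnd1 and Kcnb2, the sodium-activated Kcnt1, the calcium-activated Kcnn4, and the auxiliary subunit genes Kcnab1 and Kcne4. Kcnb2 alone was higher in SMiG. The nearest detected genes inside the threshold were Kcna3 at −0.62, with SMiG below its floor, and Kcnj9 at 0.44. RefSeq start-site windows were available for 5 of the 9 genes, and all 5 were lower in SMiG as measured. The 250 bases before 1 start of each are shown. Shared regulation of these genes was not tested. The windows lie in the GRCr8 assembly at chr9:31891282-31891531 on the minus strand for Kcnq5 and, on the plus strand, at chr3:29081089-29081338 for Kcnt1, chr2:151614301-151614550 for Kcnab1, chr9:87695798-87696047 for Kcne4 and chr10:91449401-91449650 for Kcnh6. Each is written 5′ to 3′ toward the gene, with capitals for TGACG, the core of the cAMP response element, which is the site of CREB, the factor that cAMP signalling activates. Kcna1, Kcnb2, Kcnd1 and Kcnn4 were not matched to a window.
Kcnq5: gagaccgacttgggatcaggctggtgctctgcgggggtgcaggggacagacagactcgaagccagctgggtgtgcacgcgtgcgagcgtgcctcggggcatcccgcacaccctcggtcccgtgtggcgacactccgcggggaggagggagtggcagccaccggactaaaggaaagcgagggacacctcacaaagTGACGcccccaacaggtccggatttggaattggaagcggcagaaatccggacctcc
Kcnt1: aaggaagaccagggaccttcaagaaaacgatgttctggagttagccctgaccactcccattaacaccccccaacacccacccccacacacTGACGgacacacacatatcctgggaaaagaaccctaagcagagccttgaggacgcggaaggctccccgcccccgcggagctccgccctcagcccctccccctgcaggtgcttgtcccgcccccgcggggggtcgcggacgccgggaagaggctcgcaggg
Kcnab1: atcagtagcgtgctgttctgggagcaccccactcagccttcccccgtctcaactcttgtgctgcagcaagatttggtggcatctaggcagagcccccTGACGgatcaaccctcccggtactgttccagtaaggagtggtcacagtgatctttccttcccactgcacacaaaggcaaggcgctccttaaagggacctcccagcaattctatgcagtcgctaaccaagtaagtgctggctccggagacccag
Kcne4: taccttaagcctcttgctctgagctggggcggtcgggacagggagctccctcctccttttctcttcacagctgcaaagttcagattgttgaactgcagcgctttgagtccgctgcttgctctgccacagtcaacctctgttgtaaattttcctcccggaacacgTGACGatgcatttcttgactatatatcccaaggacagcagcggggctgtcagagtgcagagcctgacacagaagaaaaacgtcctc
Kcnh6: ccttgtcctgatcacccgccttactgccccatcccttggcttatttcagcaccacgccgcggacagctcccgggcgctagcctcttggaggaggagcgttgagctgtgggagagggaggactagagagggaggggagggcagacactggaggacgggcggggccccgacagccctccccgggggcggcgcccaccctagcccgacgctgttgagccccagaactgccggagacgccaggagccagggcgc
TGACG, searched on both strands, was present once in the windows of Kcnq5, Kcnt1, Kcnab1 and Kcne4, beginning 56, 160, 153 and 86 bases before the start, and absent from that of Kcnh6 and from a second window of Kcnt1. It stood in 18.2% of all 33465 RefSeq windows of this length and in 12 of the 66 windows of potassium channel genes (18.2%). The full element TGACGTCA was in 0 of the 6 windows of these 5 genes and in 1.59% of all windows. Other motifs were searched in the same way, both strands included. The AP-1 site TGANTCA was in 0 of the 6 windows (6.34% of all windows), the E-box CACGTG in 1 (5.59%), the hypoxia core ACGTG in 1 (16.6%) and the GC box GGGCGG in 4 (30.5%). In Kcne4 the E-box, the hypoxia core and TGACG overlap. Among all potassium channel windows, 48.5% held the GC box. The motifs were chosen after the windows were seen, so these counts are no test of enrichment. For Kcnt1 the window printed is the one that holds TGACG. A match describes these letters and not a bound factor. The Kcnab1 and Kcne4 windows belong to starts inside the span of the gene, so they can hold transcribed sequence.

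Voltage-gated channels held the largest difference of the family. Of 25 pore-forming voltage-gated genes 10 were detected. Of the 10, 4 passed 2-fold as lower in SMiG and 1 as higher, beside 6.51% and 3.19% over all detected genes. Of those past 2-fold, Kcnd1 and Kcnb2 were detected through 1 array only. Of the 6 genes above the floor on both arrays, Kcnq5, Kcna1 and Kcnh6 passed 2-fold, all lower. Among all genes of that kind, 5.34% were lower and 3.2% higher. The median of the 10 was −0.32. That median lies between Kcna3 and Kcnq1, both below the floor in SMiG, and its sign is not settled. It was 0.0087 when dim values were set to the floor and 0.029 with no floor. It was −0.030 over the 9 genes detected when each gene on the array was read by its brightest probe set. Each voltage-gated gene had 1 probe set, so only the recomputed floor, and not the values of these genes, changed there. Kcnq5 (probe set 17863402) encodes Kv7.5, a subunit of the slow M-type potassium current that opens near rest. Its level was 5.90 in SMiG and 8.95 in C6, which makes it 8.30-fold lower, with both arrays above the floor and a difference of −3.05. It ranked 35th from the bottom among the 10932 detected genes. Its relatives on the array were at or near the floor, with Kcnq1 at 4.89 in SMiG and 4.92 in C6, and Kcnq3 at 4.26 in SMiG and 4.07 in C6, below the floor on both.

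Kcna1 (probe set 17795062) encodes Kv1.1, a delayed rectifier of axons that is mutated in human episodic ataxia. Its level was 5.52 in SMiG and 7.94 in C6, 5.32-fold lower in SMiG and above the floor on both arrays. Its neighbours on chromosome 4 were dim: Kcna5 was at 4.19 in SMiG and 4.56 in C6 and Kcna6 at 4.75 in SMiG and 4.73 in C6, each below the floor on both arrays, where a decrease cannot be measured. Kcna3, which encodes the Kv1.3 channel of lymphocytes and microglia, was at 4.26 in SMiG and 4.87 in C6, barely above the floor in C6. Kcna7 was at 5.63 in SMiG and 5.66 in C6, and the other shaker-related genes, Kcna2, Kcna4 and Kcna10, lay below both floors. Kcna1 was therefore the 1 gene of 8 in its subfamily that passed 2-fold.

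Kcnh6 (probe set 17652032), which encodes an erg-type channel, was at 5.28 in SMiG and 6.99 in C6, 3.26-fold lower. The other genes of the eag, erg and elk group showed little: Kcnh3 was at 5.25 in SMiG and 5.20 in C6, and the glioma-studied genes Kcnh1 (3.93 in SMiG, 3.90 in C6) and Kcnh2 (4.55 in SMiG, 4.45 in C6) were below the floor. Kcnd1 (probe set 17876218), encoding the A-type channel Kv4.1, was at 4.46 in SMiG and 5.81 in C6. SMiG was below its floor, so the fold is at least 1.80. Its relative Kcnd3, encoding Kv4.3, was slightly higher, at 6.24 in SMiG and 6.01 in C6. Kcnb2 (probe set 17805276), encoding the delayed rectifier Kv2.2, was at 5.46 in SMiG and 4.36 in C6. As C6 was below its floor, it was at least 1.54-fold higher in SMiG, and its place past 2-fold rests on a C6 value below the floor.

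The silent modifiers, subunits of the Kv5, Kv6, Kv8 and Kv9 groups that form channels only together with Kv2 subunits, were mostly below the floor. Of 10 genes 2 were detected, Kcng1 at 5.288 in SMiG and 5.001 in C6 and Kcng2 at 5.01 in SMiG and 4.81 in C6. Neither passed 2-fold.

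**Figure D2:**
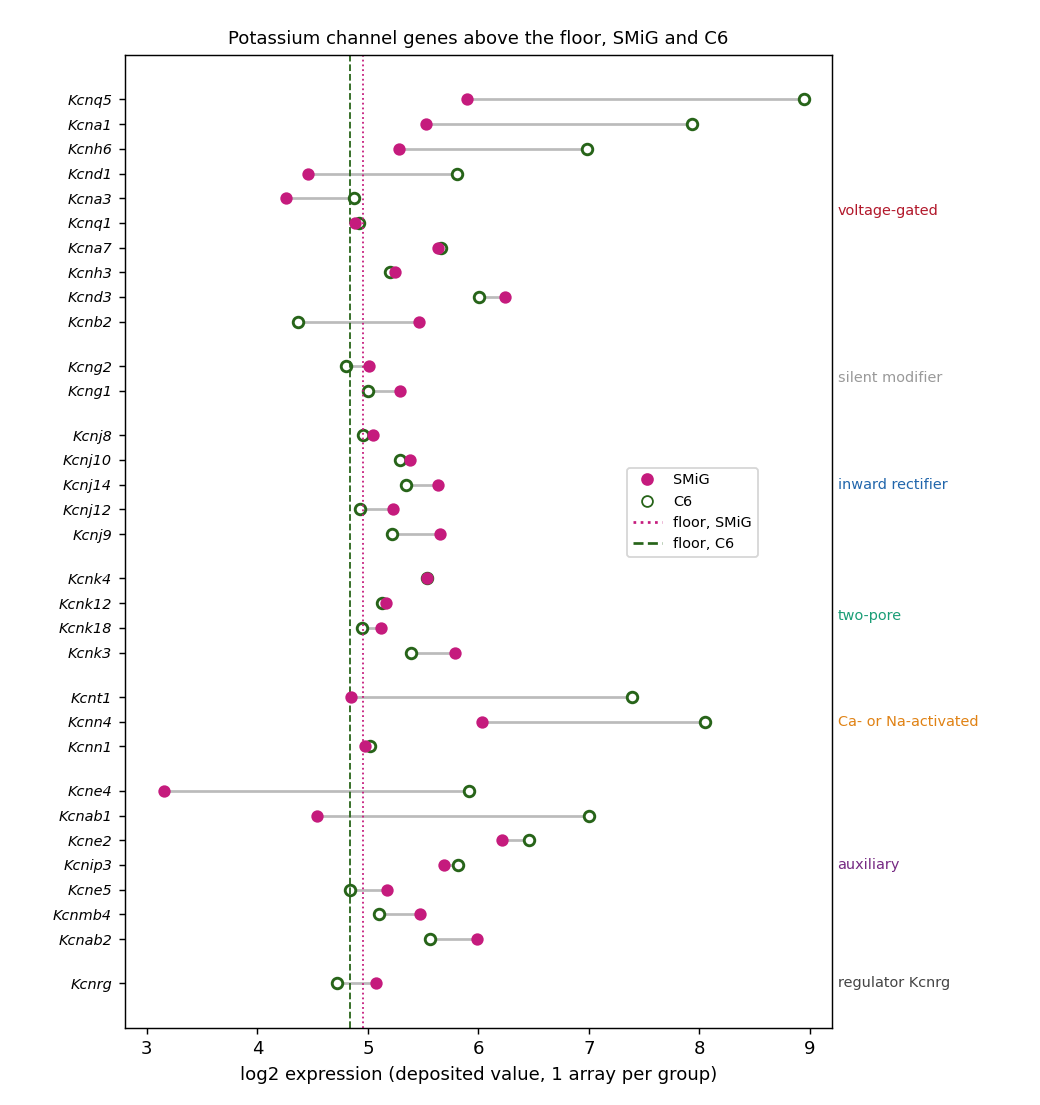
Log2 level in SMiG (filled) and C6 (open) of the 32 detected potassium channel genes, 1 array each, grouped by class and ordered by difference. Vertical lines are the floors of the arrays, 4.96 in SMiG (dotted) and 4.84 in C6 (dashed); long bars with the SMiG point on the left mark the 8 genes lower by 2-fold or more as measured.

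Of the calcium- or sodium-activated channels 3 of 7 genes were detected, and 2 of the 3 were past 2-fold, both lower in SMiG. The share over all detected genes was 6.51% lower. Of the 2, Kcnt1 was detected through C6 alone. Kcnt1 (probe set 17760106) encodes Slack, a channel of large conductance opened by intracellular sodium. Its level was 4.84 in SMiG and 7.39 in C6. SMiG was below its floor, and the fold was at least 5.38. Kcnn4 (probe set 17614165) encodes KCa3.1, a channel of intermediate conductance opened by calcium through calmodulin and studied in glioma for its part in migration. It was above the floor on both arrays, at 6.03 in SMiG and 8.05 in C6, 4.05-fold lower in SMiG. The related small-conductance gene Kcnn1 was at 4.97 in SMiG and 5.02 in C6, within reach of the floor. Kcnma1, encoding the large-conductance BK channel, was below the floor on both arrays, at 2.96 in SMiG and 3.20 in C6, as were Kcnn3, Kcnt2 and Kcnu1.

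No inward rectifier gene passed 2-fold. Of 15 genes 5 were detected, with positive differences from 0.09 to 0.44 and a median of 0.29. The silent genes had a median difference of 0.06, or 0.07 over the 79 detected, with an SD of 0.32 over all of them. Of the 5 detected inward rectifier genes, only Kcnj9 differed by more than that SD. Over all 15 genes of the class the median was 0.12. Kcnj10, encoding Kir4.1, the main channel of astrocytic potassium uptake, was at 5.38 in SMiG and 5.29 in C6. Its partner gene Kcnj16, encoding Kir5.1, was below the floor on both arrays, at 3.16 in SMiG and 2.92 in C6. Kcnj9, encoding a G protein-gated subunit, was at 5.66 in SMiG and 5.22 in C6, the largest difference of the class. Kcnj14 was at 5.63 in SMiG and 5.34 in C6, and Kcnj12 at 5.23 in SMiG and 4.93 in C6; both encode strong rectifiers of the Kir2 group. Kcnj8, encoding the pore of an ATP-sensitive channel, was at 5.04 in SMiG and 4.95 in C6, and Kcnj2, encoding Kir2.1, was below the floor at 4.17 in SMiG and 3.89 in C6. None of these levels was far above the floor on either array.

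The two-pore channels gave the same picture of low levels with small differences. Of 13 genes 4 were detected, with a median difference of 0.10 and none past 2-fold. Kcnk3, encoding the acid-sensitive channel TASK-1, was at 5.79 in SMiG and 5.39 in C6. Kcnk18, encoding TRESK, was at 5.12 in SMiG and 4.95 in C6, Kcnk12 at 5.16 in SMiG and 5.12 in C6, and Kcnk4, encoding the mechanically gated TRAAK, at 5.53 in SMiG and 5.54 in C6. Kcnk1, encoding TWIK-1 of astrocytes, was below the floor at 4.89 in SMiG and 4.60 in C6, and so was Kcnk2, encoding TREK-1, at 3.88 in SMiG and 3.70 in C6. Kcnk6, the only potassium channel gene with 2 probe sets, was below the floor in both of them.

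Auxiliary subunit genes included 2 with large differences. Of 16 genes 7 were detected, 2 of which were lower by 2-fold or more as measured while none was that much higher. Shares over all detected genes were 6.51% lower and 3.19% higher. Both lower genes passed the floor through C6 alone. None of the 4 auxiliary genes above the floor on both arrays passed 2-fold, against 5.34% lower among all genes of that kind. Kcnab1 (probe set 17738973) encodes a beta subunit that binds Kv1 channels such as Kv1.1 and can speed their inactivation. It was at 4.54 in SMiG and 7.01 in C6, and with SMiG below its floor the gene was at least 4.13-fold lower. Kcnab2, encoding a related beta subunit, was at 5.99 in SMiG and 5.56 in C6, higher by 0.43, and Kcnab3 was below the floor on both arrays. Kcne4 (probe set 17860796), encoding a single-pass subunit that inhibits several Kv channels, was at 3.15 in SMiG and 5.92 in C6. Its measured difference of −2.76 rests on a SMiG value far below the floor, and against the floor it was at least 1.94-fold lower.

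The remaining auxiliary genes were within 2-fold. Kcne2, encoding another single-pass subunit, was at 6.21 in SMiG and 6.46 in C6, and Kcne5 at 5.17 in SMiG and 4.83 in C6. Kcnip3, encoding a calcium-binding protein that acts on Kv4 channels and also as a transcriptional repressor, was at 5.69 in SMiG and 5.81 in C6. Kcnmb4, encoding a beta subunit of BK, was at 5.48 in SMiG and 5.10 in C6, while its pore gene Kcnma1 was below the floor. Kcnip4 had the largest difference among the 55 genes not detected, at 3.51 in SMiG and 4.36 in C6. Over those 55 the differences ran from −0.85 to 0.55 with a median of 0.10, and none passed 2-fold. Kcnrg, encoding a soluble protein that hinders Kv channel assembly, was at 5.07 in SMiG and 4.72 in C6.

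Set side by side, the inward rectifier and two-pore classes had 0 of 9 detected genes past 2-fold, all 9 of them above the floor on both arrays. Of the other genes above the floor on both arrays, 4 of 13 passed 2-fold, all lower in SMiG, beside 5.34% lower over all genes of that kind. These are counts over 2 arrays, and the difference between classes was not tested. The highest C6 level among the 9 inward rectifier and two-pore genes was 5.54, from which a 2-fold decrease would end below the SMiG floor. Among genes above the floor on both arrays, none of the 9 could therefore have been called lower. Their 0 in that direction is no contrast with the 4 of 13.

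**Figure D3:**
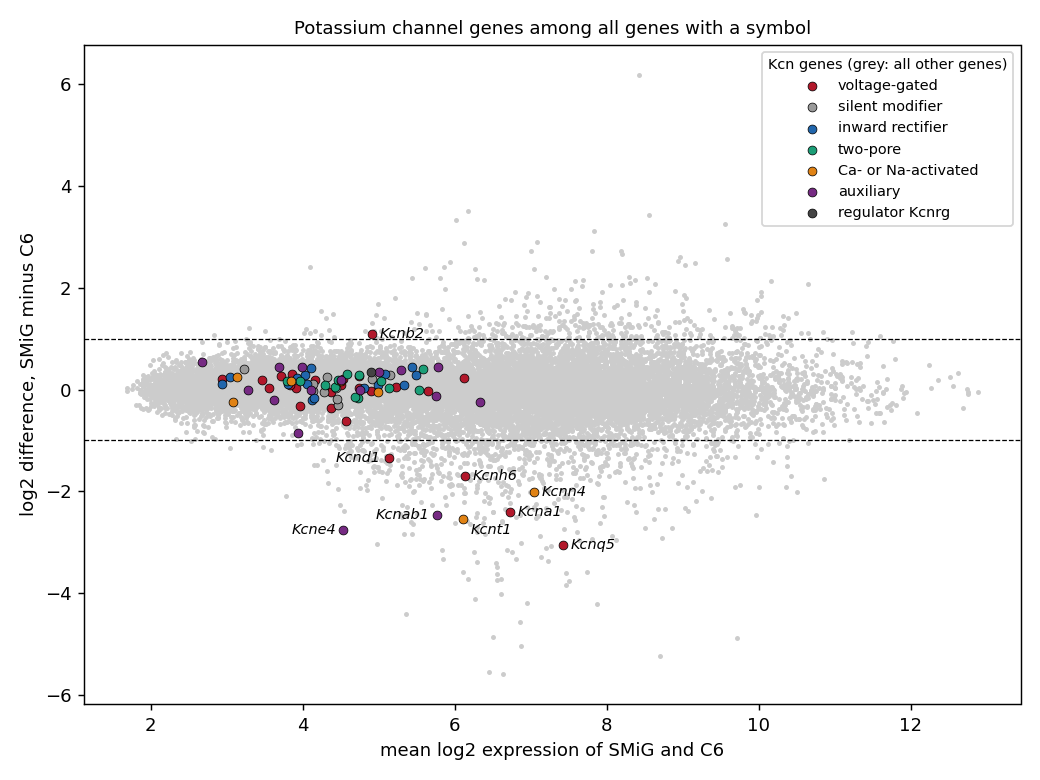
Log2 difference, SMiG minus C6, against the mean log2 level of both arrays for each gene with a symbol (grey) and for the 87 potassium channel genes (coloured by class). Dashed lines mark 2-fold; Kcnq5 has the lowest value of the family at −3.05, and most other members sit at low mean level near 0.

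Genes that work with potassium channels were read from 5 lists of 97 genes, of which 84 had a probe set with 1 symbol. For the counts of each list below, the shares over all detected genes were 6.51% lower and 3.19% higher. The sodium pump and cation chloride cotransporters, which move potassium into cells or out with chloride, had 1 of 8 detected members past 2-fold, lower in SMiG. That 1 was Fxyd5, a regulator of the pump, at 4.33 in SMiG and 5.54 in C6 and so at least 1.49-fold lower. The pump subunit gene Atp1b3 was at 9.95 in SMiG and 9.90 in C6, and Slc12a2, encoding the inward cotransporter NKCC1, at 9.31 in SMiG and 9.21 in C6. Atp1b2, encoding the glial beta subunit of the pump, was at 4.97 in SMiG and 4.38 in C6, and Fxyd2, of another pump regulator, at 5.86 in SMiG and 5.42 in C6. The potassium chloride cotransporter gene Slc12a4 was at 9.30 in SMiG and 8.97 in C6. All of these but Fxyd5 were within 2-fold.

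Among partners and scaffolds outside the Kcn symbols, 2 of 12 detected genes were lower by 2-fold or more and 1 was higher. Ank3, encoding ankyrin-G, which anchors Kcnq and sodium channels at the axon initial segment, was at 5.08 in SMiG and 7.50 in C6, 5.36-fold lower. Ank2, encoding ankyrin-B, was at 6.90 in SMiG and 8.40 in C6, 2.82-fold lower. Akap5, encoding an anchoring protein of protein kinase A that also binds M-type channels, was at 6.63 in SMiG and 5.05 in C6, 2.99-fold higher. The scaffold gene Dlg4, encoding PSD-95, was at 6.25 in SMiG and 7.20 in C6, just inside 2-fold. Dag1, encoding dystroglycan, which helps cluster Kir4.1 at astrocytic endfeet, was at 11.70 in SMiG and 10.79 in C6. Both sulfonylurea receptor genes of the ATP-sensitive channels, Abcc8 and Abcc9, lay below both floors.

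The voltage-gated sodium and calcium channel subunit genes had 2 of 8 detected members past 2-fold, both lower, and a median of −0.68. Scn1a was at 4.06 in SMiG and 6.50 in C6, at least 2.92-fold lower. Scn7a, encoding a sodium-sensing channel of glia, was at 6.97 in SMiG and 8.49 in C6, 2.87-fold lower. The calcium channel beta subunit genes Cacnb3 (5.62 in SMiG, 6.51 in C6) and Cacnb2 (6.64 in SMiG, 7.46 in C6) were lower by less than 2-fold. The list of HCN, cyclic nucleotide-gated and lysosomal channels had 0 of 6 detected members past 2-fold. Its values ran from Hcn2, at 4.72 in SMiG and 5.16 in C6, to the lysosomal channel gene Tpcn2, at 7.39 in SMiG and 6.85 in C6. Tmem175, encoding a lysosomal potassium channel, was at 6.83 in SMiG and 7.07 in C6, and the photoreceptor channel gene Cngb1 at 5.25 in SMiG and 4.95 in C6.

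All 6 genes in the list of transcriptional regulators had a negative difference, with a median of −0.28 and 1 past 2-fold. A negative difference was also found for 5501 of all 10932 detected genes. The differences of Rest, Sp1 and Nfatc4 were smaller than the SD of 0.32 among silent genes. Nfatc2, encoding a calcineurin-dependent factor, was at 4.91 in SMiG and 5.98 in C6 and at least 2.02-fold lower. Rest, encoding a repressor of neuronal genes, channels among them, was at 8.27 in SMiG and 8.37 in C6, and its corepressor gene Rcor1 at 7.47 in SMiG and 7.88 in C6. Nfatc3 was at 7.87 in SMiG and 8.30 in C6, and Sp1, encoding a factor that binds GC boxes, at 8.42 in SMiG and 8.56 in C6. The 5 lists together had 6 of 40 detected genes past 2-fold in the lower direction and 1 in the higher, against the shares of 6.51% and 3.19% over all detected genes. Of the lower ones, Fxyd5, Scn1a and Nfatc2 passed the floor through C6 alone. Among all genes above the floor on both arrays, 5.34% were lower. The lists were chosen with earlier results of these data known, so these counts give no independent support.

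**Figure D4:**
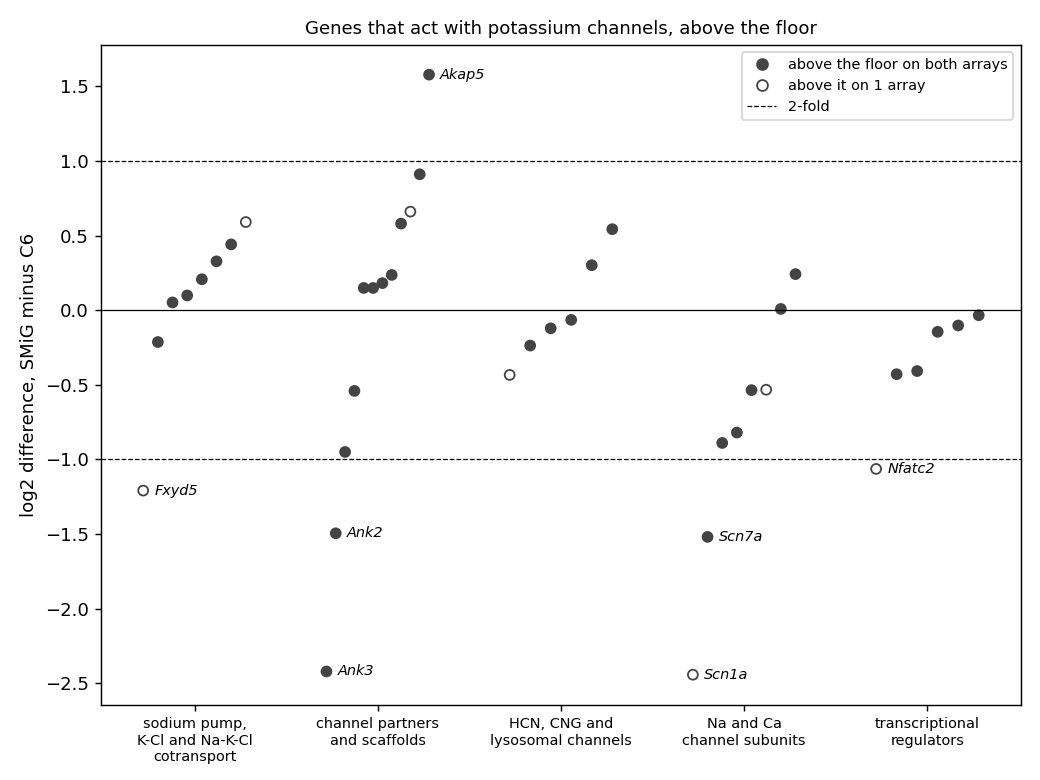
Log2 difference, SMiG minus C6, of the 40 detected genes of the 5 lists, ordered by difference within each list. Filled points were above the floor on both arrays, open points on 1, and dashed lines mark 2-fold; Ank3 and Scn1a are the lowest and Akap5 the highest.

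Several of the lower genes are known from neurons, and markers of other cell types were read beside them. Of 8 neuron markers 4 were detected, and the summed linear signal of all 8 was 767 in SMiG and 964 in C6. Gad1 was at 6.44 in SMiG and 8.52 in C6, whereas Map2 was at 9.01 in SMiG and 8.80 in C6 and Snap25 at 6.17 in SMiG and 5.65 in C6. The neuron markers Tubb3, Syt1, Stmn2 and Nefl were below the floor on both arrays, and Rbfox3 was within reach of it. Of 4 endothelial and mural markers with a probe set of 1 symbol 3 were detected, with a summed signal of 148 in SMiG and 512 in C6. Pdgfrb was at 6.22 in SMiG and 8.59 in C6, and Flt1 at 4.47 in SMiG, below its floor, and 6.46 in C6. Rgs5 went the other way, at 5.07 in SMiG and 4.49 in C6, with C6 below its floor. Of 6 microglia markers 2 were detected, with a summed signal of 123 in SMiG and 135 in C6, and of 3 muscle markers 1 was, with 78.3 in SMiG and 76.9 in C6. The astrocyte markers summed to 2209 in SMiG and 1740 in C6 over 7 genes. Of the 4 detected members S100b alone was higher, by 1.20 on the log2 scale, while Gja1 at −2.30, Ndrg2 at −1.62 and Gfap at −0.56 were lower, and the median difference was −1.09. The oligodendrocyte lineage markers summed to 4231 in SMiG and 3326 in C6 over 7 genes, with a median difference of 0.35 and a range from −1.17 for Pdgfra to 1.52 for Cnp. The part of these markers in the potassium channel differences was not tested.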

How the data were processed

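Sense cDNA made from total RNA was fragmented, end-labelled with biotin and hybridised to Affymetrix whole-transcript arrays, per the labels' protocols. The deposited table gives 1 value per probe set and array, and these were taken as log2 expression, already put on 1 scale by the authors. The log base was read from the range of 1.26 to 13.09. How background, normalization and probe summary were handled is not given in the sources used here, and it could change any fold. Samples were grouped by title.

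Gene symbols came from the platform annotation: 18511 probe sets had 1 symbol, 575 had several and 17599 had none, and 0 of those with several named a Kcn gene. Probe sets of 1 gene were averaged. All 87 Kcn genes matched RefSeq (GRCr8) by gene number with 0 changed symbols. RefSeq lists 95 protein-coding Kcn genes, and 8 of them were not among the genes analysed, so the class counts do not cover the whole family. The start-site windows are RefSeq sequences of GRCr8, and the motifs searched in them were chosen after the windows were seen.

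Detection used the 95th percentile of silent receptor genes, which 5.88% of those genes passed on at least 1 array. Folds against an array at or below its floor are given as "at least". Genes were named if past 2-fold, among the 4 largest differences or 2 brightest of a class, or among 12 genes named whatever their value, of which 2 are not reported here. List genes were named if past 2-fold or among the 4 largest differences of a list. Others are named to complete a subfamily or for their known role, and were chosen after their values were seen. The members, classes and lists were chosen with earlier results of these data known. The counting step was tested on simulated data.

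Alternatives tried were the floor at the 99th percentile, no floor, values raised to the floor, centring, a lowess trend (span 0.3), quantile normalization, the brightest probe set, each probe set alone, and 1.5-fold and 4-fold thresholds. Python 3.11.15, numpy 2.4.6, pandas 2.3.3, statsmodels 0.14.6 and matplotlib 3.10.9 were used.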

Additional observations from a re-analysis of the deposited data

How the results depend on the processing

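The count of 8 potassium channel genes at least 2-fold lower in SMiG ran from 6 to 9 over the alternatives, with 6 when values below the floor were raised to it (Kcne4 and Kcnd1 then stayed within 2-fold) and 6 at a 4-fold threshold. The 1 higher gene, Kcnb2, was lost with the floor at the 99th percentile, with values raised to the floor and at the 4-fold threshold, each leaving 0. Centring, lowess and quantile normalization left the counts of 8 and 1 as they were. Class medians moved with the floor, which sets which genes are counted. With the main floor the median was −0.12 over 7 auxiliary genes and −2.02 over 3 calcium- or sodium-activated genes. At the 99th percentile the medians were −2.06 over 4 voltage-gated genes and −2.46 over 3 auxiliary genes. For all potassium channel genes the median there was −2.41, over 9 genes of which 6 passed through C6 alone. With no floor the medians were 0.029 for voltage-gated and −0.052 for calcium- or sodium-activated genes, and with values raised to the floor the voltage-gated median was 0.0087. The voltage-gated median was −0.030 with the brightest probe set of each gene, where only the recomputed floor changed for this class. In the partner lists the 1.5-fold threshold gave 4 higher genes, and the 4-fold threshold gave 2 lower and 0 higher. Over the alternatives run for single genes, the difference of Kcnq5 ran from −3.05 to −3.02 and that of Kcnn4 from −2.02 to −1.97. No paired analysis was possible because each group has 1 array. Low signal limits the reading, since 55 of the 87 genes were at or below the floor on both arrays.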
